A study of Drosophila melanogaster with 18 samples.

Results

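The 35 genes described here encode the autophagy machinery and the proteins that fuse autophagosomes with lysosomes in Drosophila melanogaster. They were given as a list of FlyBase symbols ordered by role. No measured value enters the rule, but the list was chosen with earlier results of these data known. All 35 were found among the 17411 genes counted. RNA was sequenced from L3 larvae, the last larval stage, raised at 25 °C that carried one of 3 transgenes under the mef2 driver, which is active in muscle cells. Those transgenes were NUAK548 and NUAK550, both labelled as overexpression of the kinase gene Nuak, and lacZ, the control. Each genotype was sampled as the muscle carcass, which is a larval body wall preparation, and as whole larvae, with 3 libraries in each of the 6 groups and 18 in all. NUAK548 and NUAK550 are used here only as group names, since the labels do not say how the transgenes differ. The labels do not say whether libraries of a group came from separate cultures, so the p-values below measure the spread between these libraries, which may be technical.

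Autophagy begins when the Atg1 kinase complex and the Vps34 lipid kinase complex act on a membrane that Atg9 vesicles and the lipid transfer protein Atg2 help to supply. A pair of ubiquitin-like conjugation systems then attaches Atg8 to that membrane, which closes around cargo to form the autophagosome. The SNARE proteins Syx17, Snap29 and Vamp7, the small GTPases Rab7 and Rab2 and the HOPS tethering complex then join it to a lysosome. In muscle the pathway is known for clearing worn sarcomere proteins and mitochondria. By role the list holds 4 genes of the initiation kinase complex, 5 of the lipid kinase complex, 10 of conjugation, 4 of membrane supply, 9 of fusion and 3 of the lysosome itself.

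Libraries held 14577914 to 22341807 counts assigned to genes. Nuak itself lay between 1854 and 2815 counts-per-million units (CPM) in NUAK548 muscle, between 3370 and 4251 in NUAK550 muscle and between 338 and 379 in lacZ muscle. In whole larvae it lay between 1336 and 1499 CPM in NUAK548, 2669 and 2841 in NUAK550 and 67.9 and 123 in lacZ. All 12 muscle markers had counts in every group, and their summed level in the carcass was 26758 to 77914 CPM in NUAK548, 83569 to 122240 in NUAK550 and 40097 to 62519 in lacZ. In whole larvae that level was 3828 to 9939 CPM in NUAK548, 28017 to 33363 in NUAK550 and 3592 to 12058 in lacZ. The part of these markers in the whole-larva results was not tested. The 3 markers of male dosage compensation summed to 132 to 305 CPM in NUAK548 muscle, 60.7 to 69.2 in NUAK550 muscle and 425 to 482 in lacZ muscle. Single markers differed from the sum. In the same order of groups, lncRNA:roX2 averaged 3.14, 0.0392 and 8.33 CPM, and msl-2 averaged 19.6, 12.1 and 18.1. The first whole-larva NUAK548 library stood apart from the other NUAK548 pair, and results of the members that rest on it are given with and without it. In these bulk samples, fewer cells of a type and less RNA per cell cannot be told apart.

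In control muscle the members ran over a wide range of levels. Per kilobase of exon, Atg8a, the ubiquitin-like protein that coats autophagosomes, was the highest at 511 ± 43.9 CPM per kb (SD, n = 3 lacZ muscle libraries). Lamp1, a lysosomal membrane protein, followed at 278 ± 18.7, then Rab7 at 240 ± 7.47, Rab2 at 132 ± 1.44 and Vamp7 at 110.5 ± 12.3. None of these 5 shared any part of its range with the next gene in the order. Atg3, Atg9, Snap29 and Atg7 came after them at 59.1 ± 1.90, 58.1 ± 6.48, 54.6 ± 3.59 and 46.1 ± 17.99 CPM per kb, and here each overlapped the next. From rank 12, Atg2, to rank 24, Vps16A, neighbours in the order overlapped one another throughout. Atg4b, Atg10 and Atg8b were the lowest 3, at 4.83 ± 0.310, 2.48 ± 0.0656 and 0.0316 ± 0.0548 CPM per kb, and did not overlap each other. Atg8b, the second fly Atg8 gene, had 6 counts over the 9 muscle libraries and was too low to test there, which left 34 tested members in muscle. Exons of Atg4a and Atg10 overlap exons of other genes on the opposite strand over 51.45% and 50.13% of their length. The strand setting of the counting is not given in the sources used here, so the levels of both are uncertain, as to a lesser degree are those of Uvrag (23.81%) and Atg12 (13.65%).

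**Figure D1:**
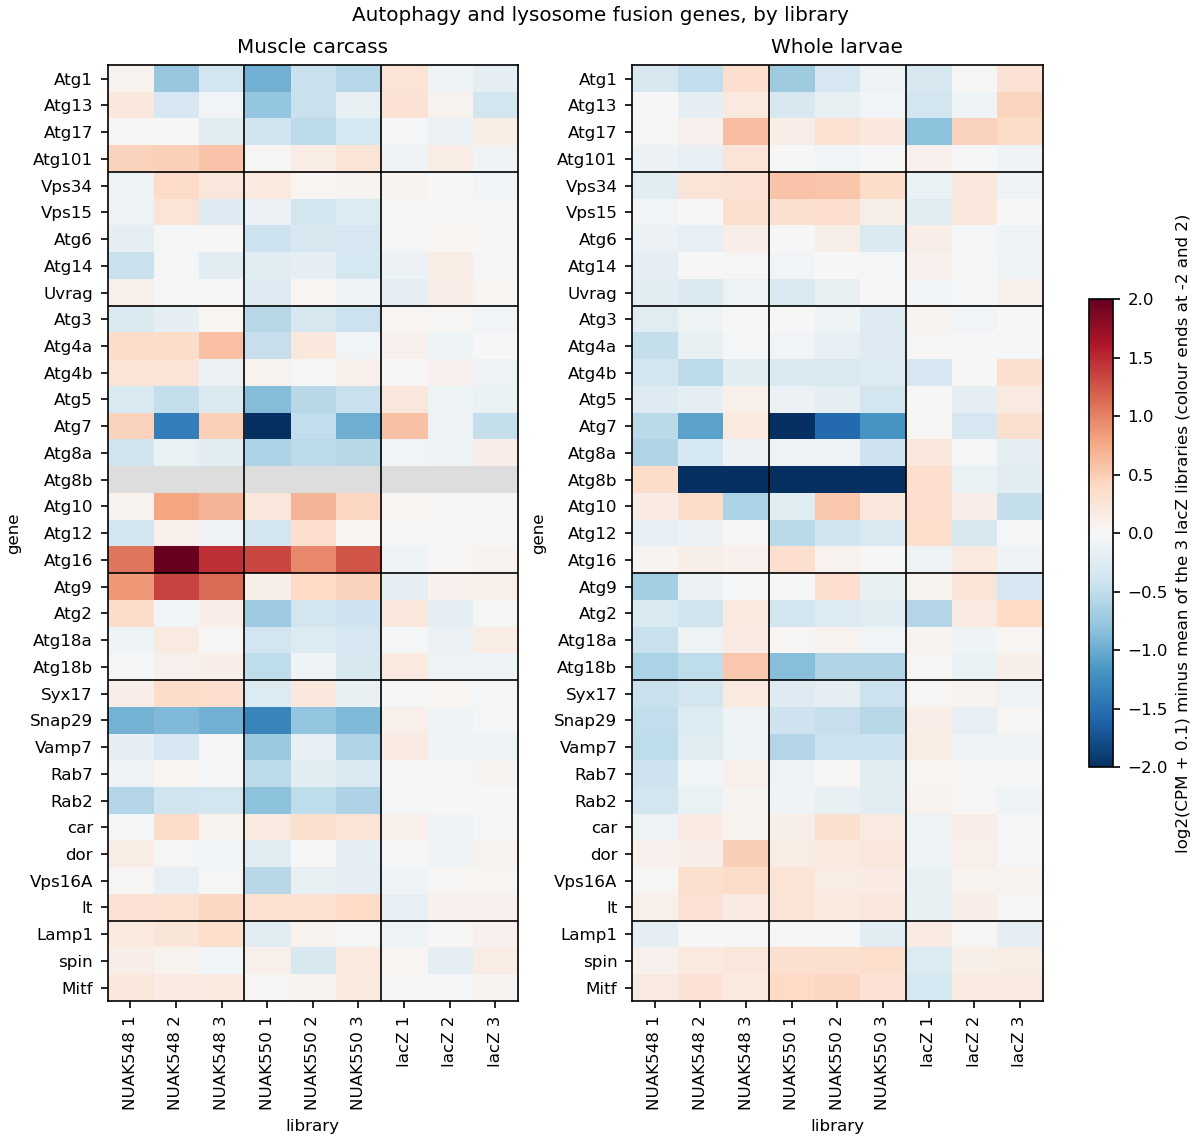
Level of each of the 35 members in every library, as log2(CPM + 0.1) minus the mean of the 3 lacZ libraries of the same preparation, ordered by role from initiation at the top to the lysosome at the bottom. Atg16 is higher in all 6 NUAK muscle libraries and Snap29 lower, while in whole larvae the Atg8b row is split, with the first NUAK548 library on the side of lacZ (grey marks Atg8b in muscle, which was too low to test).

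Comparison of each NUAK group with lacZ in the muscle carcass asked which steps of the pathway differ when Nuak is raised in muscle. Tests were edgeR quasi-likelihood tests over all 9821 genes tested, with Benjamini-Hochberg adjusted p-values and a threshold of 0.05. Both NUAK groups were compared with the same 3 lacZ libraries, so their results are not independent of each other. In NUAK548 muscle, 3 of 34 members rose and 1 fell, where 2.6% of all genes tested were called higher and 2.96% lower. The members that rose were Atg16, Atg9 and Atg101, and the one that fell was Snap29. In NUAK550 muscle 1 of 34 rose, Atg16 again, and 7 fell, where 6.45% of all genes were called higher and 6.11% lower. Those 7 were Snap29, Rab2, Atg8a, Atg5, Atg6, Atg17 and Atg3. The NUAK550 count of 8 fell to 2 without the first or the third library of either lacZ or NUAK550 and to 4 without the second lacZ library, with Snap29 and Rab2 called each time. In 9 members every NUAK548 library was above every lacZ library, as for 14.3% of all genes, and in 4 every one was below, as for 13.3%. The median log2 fold change over the tested members was 0.03 in NUAK548, against 0.01 for all genes, and −0.26 in NUAK550, against 0.03 for all genes.

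**Figure D2:**
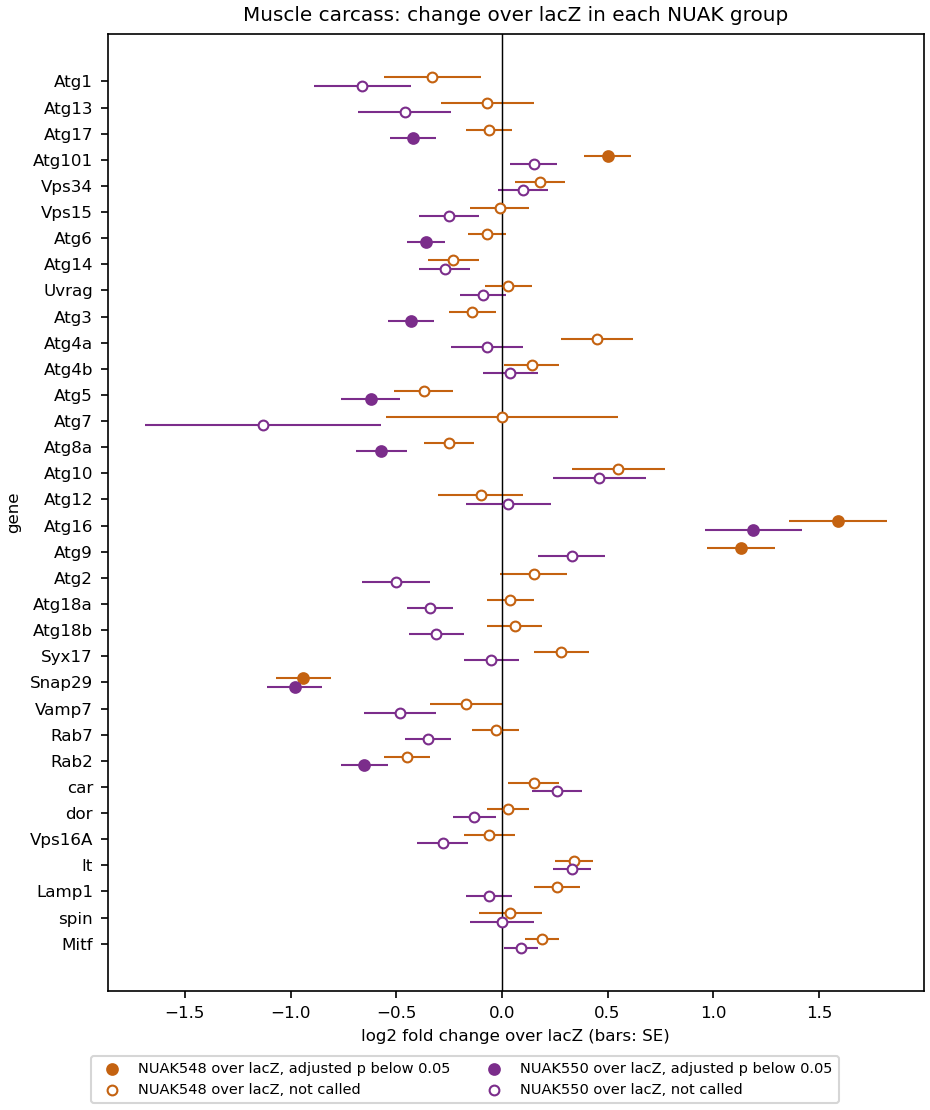
Log2 fold change of each tested member in muscle carcass, NUAK548 over lacZ (orange) and NUAK550 over lacZ (purple), with standard errors as bars and filled points for adjusted p below 0.05. Atg16 lies farthest to the right at 1.59 and 1.19, and Snap29 lies at −0.94 and −0.98.

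In the initiation kinase complex, Atg101, which stabilises Atg13, stood at 16.9, 17.1 and 18.3 CPM in NUAK548 muscle, 12.5, 13.7 and 14.8 in NUAK550 muscle and 11.7, 13.6 and 11.7 in lacZ muscle. The NUAK548 libraries lay above all lacZ libraries, while those of NUAK550 overlapped them. Atg101 rose 1.41-fold in NUAK548 (log2 0.50, adjusted p = 0.038, SE 0.11) and gave log2 0.15 in NUAK550 (adjusted p = 0.43). That call was lost without any one of 8 of the 9 libraries, all but the first NUAK550 library, with adjusted p up to 0.12. Atg17, the scaffold subunit, was at 81.4, 80.5 and 69.7 CPM in NUAK548, 61.3, 56.0 and 63.2 in NUAK550 and 79.4, 73.8 and 89.0 in lacZ. Only the NUAK550 libraries lay wholly below lacZ, and Atg17 fell 1.34-fold there (log2 −0.42, adjusted p = 0.036, SE 0.11). The kinase gene Atg1 also lay below lacZ in every NUAK550 library, at 40.2, 57.4 and 52.7 CPM against 94.5, 73.3 and 69.1 in lacZ, but did not pass the edgeR test (log2 −0.66, adjusted p = 0.097, SE 0.23). DESeq2 called Atg1 there.

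Of the 5 genes of the lipid kinase complex, 1 was called, in NUAK550, where 6.11% of all genes were called lower. That gene was Atg6, the fly Beclin 1, which holds the complex together. It stood at 21.3, 23.6 and 24.2 CPM in NUAK548 muscle, 17.9, 19.3 and 19.2 in NUAK550 muscle and 23.7, 24.8 and 24.0 in lacZ muscle. NUAK550 libraries lay below all others, and Atg6 fell 1.29-fold in NUAK550 (log2 −0.36, adjusted p = 0.029, SE 0.09). The catalytic subunit Vps34, the kinase-like subunit Vps15 and the alternative partners Atg14 and Uvrag had log2 values between −0.23 and 0.18 in NUAK548. In NUAK550 these values lay between −0.27 and 0.10. All NUAK550 libraries of Vps15 and Atg14 lay below lacZ, which held for 16.3% of all genes. None of these 4 genes was called in either NUAK group. Calls for Atg17 and Atg6 were each lost without any one of the 3 NUAK550 or the 3 lacZ libraries, with adjusted p up to 0.12 for Atg17 and 0.088 for Atg6.

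The conjugation genes did not move as a block. Atg16, the subunit that brings the Atg12-Atg5 conjugate to the growing membrane, lies on chromosome 3R between 29827281 and 29835101 on the minus strand (BDGP6). It stood at 58.7, 116.5 and 76.8 CPM in NUAK548 muscle, 70.5, 54.3 and 67.0 in NUAK550 muscle and 26.1, 28.4 and 29.2 in lacZ muscle. Every NUAK library was higher than every lacZ library, and the second NUAK548 library was the highest. Atg16 rose 3.01-fold in NUAK548 (log2 1.59, adjusted p = 0.0085, SE 0.23) and 2.29-fold in NUAK550 (log2 1.19, adjusted p = 0.015, SE 0.23). The NUAK548 call held without each library in turn. The NUAK550 call was lost without the first or the third NUAK550 library or the first or the third lacZ library, with adjusted p up to 0.064.

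Atg5, the partner of Atg16 in that conjugate, went the other way. It stood at 21.0, 18.8 and 21.3 CPM in NUAK548 muscle, 14.3, 17.8 and 19.2 in NUAK550 muscle and 30.5, 24.5 and 23.8 in lacZ muscle. Both NUAK groups lay below lacZ, and the call was made in NUAK550, where Atg5 fell 1.54-fold (log2 −0.62, adjusted p = 0.026, SE 0.14). Atg8a was at 655, 789 and 745.5 CPM in NUAK548, 559, 604 and 589 in NUAK550 and 828, 818 and 952 in lacZ. Again all 6 NUAK libraries lay below lacZ, and Atg8a fell 1.48-fold in NUAK550 (log2 −0.57, adjusted p = 0.018, SE 0.12) while NUAK548 gave log2 −0.25 (adjusted p = 0.26, SE 0.12).

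Atg3, the enzyme that transfers Atg8 to lipid, was at 59.1, 62.8 and 74.4 CPM in NUAK548, 49.3, 57.7 and 53.5 in NUAK550 and 74.0, 73.0 and 69.6 in lacZ. It fell 1.35-fold in NUAK550 (log2 −0.43, adjusted p = 0.036, SE 0.11), where its libraries lay below lacZ. Of these NUAK550 calls, Atg5 was lost without any one of the 3 NUAK550 or 3 lacZ libraries (adjusted p up to 0.093). The Atg3 call was lost without any lacZ library or the first or the third NUAK550 library (up to 0.11), and the Atg8a call without the first or the third library of either group (up to 0.076). Atg7, the activating enzyme for both conjugation systems, varied most between libraries of a group. It stood at 144, 40.7 and 146 CPM in NUAK548 muscle, 23.5, 74.7 and 53.2 in NUAK550 muscle and 158, 97.5 and 75.1 in lacZ muscle. Its pooled SD within groups was 0.847 on the log2 scale, the widest of the 35 genes in muscle, and its NUAK550 value of log2 −1.13 (adjusted p = 0.22, SE 0.56) was not called.

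Among the 4 membrane supply genes, edgeR called only Atg9 against lacZ. Atg9 encodes the transmembrane lipid scramblase whose vesicles seed the autophagosome, and lies on chromosome 2R between 16294400 and 16297232 on the plus strand. It stood at 300.1, 419 and 361 CPM in NUAK548 muscle, 178, 216 and 225 in NUAK550 muscle and 143, 175 and 176 in lacZ muscle. All NUAK548 libraries lay far above lacZ, while the lowest NUAK550 library was only just above the highest lacZ library. Atg9 rose 2.18-fold in NUAK548 (log2 1.13, adjusted p = 0.0077, SE 0.16), and its NUAK550 value of log2 0.33 (adjusted p = 0.22, SE 0.16) was not called. The NUAK548 call held without each library in turn. Atg2 was at 220, 165 and 188 CPM in NUAK548, 104, 133 and 129 in NUAK550 and 199, 151 and 167 in lacZ, and Atg18a at 114, 136 and 122 CPM in NUAK548, 92.3, 100.1 and 95.5 in NUAK550 and 118, 111 and 134 in lacZ. In both, the NUAK550 libraries lay below all others, with log2 −0.50 (adjusted p = 0.077, SE 0.16) for Atg2 and −0.34 (adjusted p = 0.079, SE 0.11) for Atg18a in NUAK550. DESeq2 called both lower there.

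The fusion genes gave 1 lower call of 9 by edgeR in NUAK548, where 2.96% of all genes were called lower, and 2 in NUAK550, where 6.11% were. Snap29, the SNARE that bridges the autophagosome and lysosome membranes with Syx17 and Vamp7, lies on chromosome 2R between 23843483 and 23844763 on the minus strand. It stood at 34.1, 35.7 and 33.9 CPM in NUAK548 muscle, 26.5, 38.1 and 35.7 in NUAK550 muscle and 71.0, 62.5 and 64.9 in lacZ muscle. No NUAK library came near any lacZ library. Snap29 fell 1.91-fold in NUAK548 (log2 −0.94, adjusted p = 0.0077, SE 0.13) and 1.98-fold in NUAK550 (log2 −0.98, adjusted p = 0.004, SE 0.13). Both calls held without each library in turn.

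Rab2, a small GTPase that works with HOPS in autophagosome and endosome fusion, was at 150, 171 and 175 CPM in NUAK548 muscle, 127, 159 and 147 in NUAK550 muscle and 223, 226 and 228 in lacZ muscle. The lacZ libraries were tightly grouped and above all 6 NUAK libraries. Rab2 fell 1.56-fold in NUAK550 (log2 −0.65, adjusted p = 0.01, SE 0.11), and its NUAK548 value of log2 −0.45 (adjusted p = 0.059, SE 0.11) missed the threshold in edgeR. DESeq2 and limma called Rab2 in NUAK548. Rab7 lay below lacZ in every NUAK550 library (log2 −0.35, edgeR adjusted p = 0.072, SE 0.11), and DESeq2 and limma called it there. Snap29's SNARE partners were not called by edgeR in either group, while DESeq2 called Vamp7 in NUAK550. Vamp7 was at 111, 99.8 and 127 CPM in NUAK548, 75.8, 113 and 82.9 in NUAK550 and 143, 119 and 118 in lacZ, and its NUAK550 value was log2 −0.48 (adjusted p = 0.10, SE 0.17). For Syx17 the levels were 29.0, 34.0 and 33.2 CPM in NUAK548, 21.8, 30.6 and 23.7 in NUAK550 and 26.4, 27.0 and 25.6 in lacZ, so the NUAK548 libraries lay above lacZ and those of NUAK550 overlapped it.

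**Figure D3:**
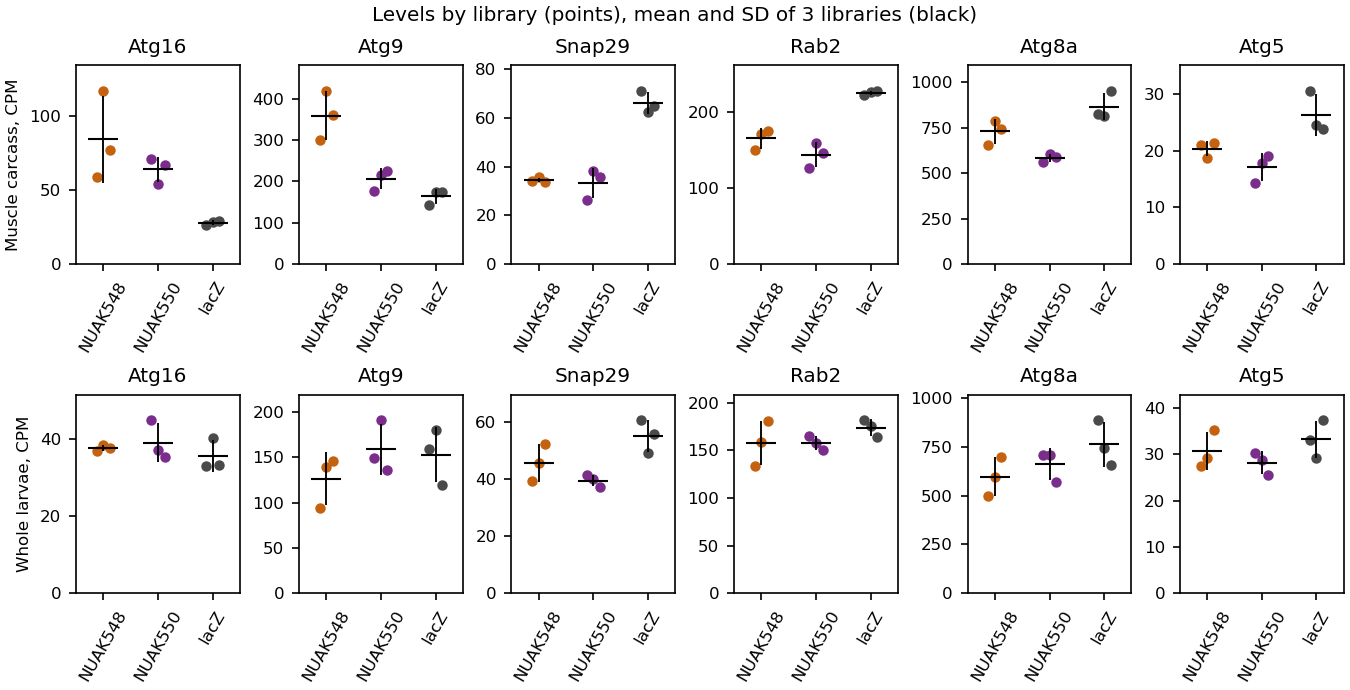
Level in CPM of the 6 genes named in the panels, by library (points), with the mean and SD of 3 libraries (black), in muscle carcass (top row) and whole larvae (bottom row). In muscle all NUAK points of Atg16 lie above lacZ and all those of Snap29, Rab2, Atg8a and Atg5 below it, and in whole larvae the groups of Atg16 overlap.

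When the log2 levels of the NUAK groups were averaged, 3 of 34 members were higher than in lacZ muscle and 4 lower, where 4.85% of all genes were called higher and 5.75% lower. That count of 7 became 3 without any one lacZ library and 4 without the first or the second NUAK550 library. The higher members were Atg16 (log2 1.39, adjusted p = 0.0059, SE 0.21), Atg9 (log2 0.73, adjusted p = 0.016, SE 0.14) and lt. The gene lt encodes the Vps41 subunit of HOPS and stood at 59.8, 60.4 and 65.2 CPM in NUAK548, 60.2, 60.005 and 63.9 in NUAK550 and 43.4, 51.7 and 51.5 in lacZ. It rose 1.26-fold (log2 0.33, adjusted p = 0.038, SE 0.08), with all 6 NUAK libraries above all lacZ libraries. The lower members were Snap29 (log2 −0.96, adjusted p = 0.002), Rab2 (log2 −0.55, adjusted p = 0.011), Atg5 (log2 −0.49, adjusted p = 0.036) and Atg8a (log2 −0.41, adjusted p = 0.036). Calls for Atg16, Snap29 and Rab2 held without each library in turn, with adjusted p up to 0.036, 0.013 and 0.05. Atg9 was lost without any one of the 3 lacZ libraries (up to 0.078), Atg5 without any but the third NUAK550 library (up to 0.15), Atg8a without any but the first or second NUAK548 library (up to 0.15), and lt without any of the 9 (up to 0.15). The remaining HOPS genes car, dor and Vps16A, and the lysosomal genes Lamp1, spin, a lysosomal efflux carrier, and Mitf, the fly counterpart of the lysosome gene regulator TFEB, were not called by edgeR in any NUAK muscle comparison, while DESeq2 called Lamp1 between NUAK550 and NUAK548.

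The NUAK groups were also compared with each other in muscle. No member was called by edgeR between NUAK550 and NUAK548, where 1.45% of all genes were, although 13 of 34 had an unadjusted p below 0.05, as did 20.6% of all genes. DESeq2 called 8 members and limma 1, Atg9, with 897 and 135 genes called in all. Of the 34 log2 values, 32 lay below 0, as did 48.9% of those of all genes, and the median was −0.29 against 0.01 for all genes. In 12 members every NUAK550 library was below every NUAK548 library, which held for 11.2% of all genes, and in 0 members was every one above, which held for 13.4%. All 4 membrane supply genes were among them. Their values were log2 −0.80 for Atg9 (adjusted p = 0.053, SE 0.16), −0.65 for Atg2 (adjusted p = 0.092, SE 0.16) and −0.37 for each of the lipid-binding genes Atg18a and Atg18b. Against lacZ, the NUAK550 libraries of 16 members lay wholly below, where 16.3% of all genes did, and those of 5 lay wholly above, where 17.8% did. Summed muscle markers were higher in each NUAK550 carcass library than in any other carcass library, and the male dosage compensation markers lower. Summed fat body markers in the carcass were 3786 to 5829 CPM in NUAK548, 7116 to 18155 in NUAK550 and 5292 to 13225 in lacZ. Hemocyte markers summed there to 619 to 1050 CPM in NUAK548, 592.5 to 1265 in NUAK550 and 441 to 649 in lacZ. The part of these markers in the muscle results was not tested.

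Other genes of the pathway were counted from 4 further lists, in NUAK550 muscle against the same 6.11% of all genes called lower and 6.45% called higher. Of 23 other autophagy and tethering factors, 6 fell and 0 rose there. They were Mon1, Rab14, Epg5, mtm, Tango5 and Rab5, with a list median of log2 −0.28. Of 17 tested lysosomal hydrolases and membrane proteins, 4 fell and 0 rose there, namely Ppt1, Npc1a, Sap-r and CtsF, with a median of −0.19. Of 20 tested subunits and accessory proteins of the V-ATPase, the proton pump that acidifies lysosomes, 5 fell and 0 rose, namely Vha68-1, Vha14-1, VhaM9.7-b, ATP6AP2 and VhaPPA1-1, with a median of −0.37. Without single libraries these counts ranged over 1 to 7 tethering factors, 1 to 4 hydrolases and 2 to 5 V-ATPase genes. They were 1, 1 and 2 without the third NUAK550 library, 3, 1 and 4 without the first, 2, 1 and 2 without the first lacZ library, and 2, 1 and 3 without the third lacZ library. Hydrolases also numbered 2 without the second lacZ library or the third NUAK548 library. Calls for Rab14, Ppt1, Vha14-1 and Vha68-1 held in all 9 such fits. Among 19 nutrient sensing regulators edgeR called 0, with 6 at an unadjusted p below 0.05, as for 28.4% of all genes. DESeq2 called 3 of these regulators and limma 0, with 1880 and 1218 genes called in all. In NUAK548 muscle the only gene of these lists that edgeR called was cathD, which rose (log2 0.80, adjusted p = 0.018, SE 0.14), a call lost without the first or the second lacZ library or the third NUAK548 library (up to 0.078). There 22.2% of all genes had an unadjusted p below 0.05. Of the lists with 0 calls there, the tethering factors had 8 genes at such a p, the V-ATPase 5 and the nutrient sensing regulators 4. DESeq2 called Mon1 of the first list, 3 genes of the V-ATPase and 0 of the nutrient sensing regulators, and limma 0 in all 3 lists. Over all genes DESeq2 called 1132 and limma 568 there.

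For the mean of the NUAK groups, Mon1, whose product activates Rab7 together with Ccz1, was at 18.1 ± 1.12 CPM in NUAK548 muscle, 15.9 ± 0.984 in NUAK550 muscle and 22.9 ± 1.51 in lacZ muscle (SD, n = 3 each), and fell (log2 −0.44, adjusted p = 0.015, SE 0.08). The catalytic V-ATPase subunit gene Vha68-1 was at 61.9 ± 1.37 CPM in NUAK548, 49.9 ± 2.43 in NUAK550 and 76.0 ± 1.37 in lacZ, and fell (log2 −0.45, adjusted p = 0.0043, SE 0.06). Ppt1, a lysosomal thioesterase gene, was at 12.04 ± 1.01 CPM in NUAK548, 9.71 ± 1.06 in NUAK550 and 16.4 ± 1.27 in lacZ, and fell (log2 −0.60, adjusted p = 0.011, SE 0.11). In contrast cathD, the lysosomal aspartic protease cathepsin D, was at 910.5 ± 115.5 CPM in NUAK548, 728 ± 82.9 in NUAK550 and 523 ± 52.9 in lacZ, and rose (log2 0.64, adjusted p = 0.017, SE 0.13). Vha68-1 held without each library in turn. The call for Ppt1 was lost without the second lacZ library (adjusted p = 0.056), and those for Mon1 and cathD without the first or the second (up to 0.073 and 0.082). In whole larvae, for the mean of the NUAK groups, edgeR called 0 genes in each of the 4 lists, with 4 tethering factors, 5 hydrolases, 6 V-ATPase genes and 1 nutrient sensing regulator at an unadjusted p below 0.05, as for 29% of all genes. DESeq2 called 3, 5, 3 and 1 genes of those lists, and limma 0, with 1250 and 77 genes called in all. These fits held the first whole-larva NUAK548 library. With it edgeR called 0.424% of all genes for the mean, and without it 18.9% were called lower. Counts for the 4 lists without that library are not given here, so the 0 calls do not show that the lists were unchanged.

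In whole larvae edgeR called 0 of 35 members in each of the NUAK comparisons. Over all 12255 genes it called 0.155% in NUAK548 against lacZ, 0.808% in NUAK550 against lacZ, 0.424% for the mean of both and 0.139% between NUAK550 and NUAK548. Members with an unadjusted p below 0.05 numbered 1, 8, 6 and 3 in those comparisons, and such genes made up 10.5%, 34.6%, 29% and 21.4% of all genes. DESeq2 called 0, 4, 3 and 1 members, with 488, 2419, 1250 and 1012 genes called in all. Limma called 0, 4, 0 and 0 members, with 41, 2122, 77 and 31 genes called in all. Atg16 was at 37.0, 38.6 and 37.7 CPM in NUAK548 whole larvae, 44.9, 37.2 and 35.3 in NUAK550 and 33.2, 40.4 and 33.3 in lacZ. These groups overlapped, with log2 0.11 for the mean of the NUAK groups (adjusted p = 0.52, SE 0.11). Atg9 overlapped likewise, at 93.6, 140 and 146 CPM in NUAK548, 149, 191 and 136 in NUAK550 and 159, 180 and 120 in lacZ (mean log2 −0.11, adjusted p = 0.73, SE 0.20). Snap29 was at 39.2, 45.6 and 52.5 CPM in NUAK548, 41.4, 39.9 and 37.4 in NUAK550 and 60.7, 49.4 and 55.8 in lacZ. Its NUAK550 libraries lay below lacZ and those of NUAK548 overlapped it, with log2 −0.48 in NUAK550 (adjusted p = 0.095, SE 0.13).

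Atg8b separated whole-larva libraries more than any other member. The gene lies on chromosome 3R between 17724410 and 17725063 on the minus strand, and in the fly it is known for its expression in the male germline. It was at 10.96, 0 and 0.0571 CPM in NUAK548, 0, 0 and 0.0958 in NUAK550 and 10.7, 7.75 and 7.35 in lacZ. The first NUAK548 library was thus like lacZ, while the remaining 5 NUAK libraries had 3 counts among them. Over their 3 libraries NUAK550 larvae had 2 counts and lacZ larvae 484, a 222-fold higher CPM in lacZ (95% interval 61 to 1836, counting error only). With the first NUAK548 library in the fit Atg8b was not called in NUAK548 (adjusted p = 0.77), in NUAK550 (0.095) or for the mean (0.15). Without it Atg8b was called lower in all of them, at adjusted p = 0.00016, 5.3e-05 and 1.2e-05, in fits that called 16.9%, 19.1% and 18.9% of all genes lower. That library was singled out from these same data, in which its Atg8b level was like lacZ. Calls made without it are therefore no independent support for a lower level.

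The summed testis markers and the male dosage compensation RNA lncRNA:roX1 divided the whole-larva libraries in the same way. The 15 testis markers summed to 225, 17.7 and 18.7 CPM in NUAK548, 21.1, 20.2 and 18.3 in NUAK550 and 222, 170 and 181 in lacZ. In NUAK550 larvae 13 of the 15 had counts, with comr and nht at 0, and in lacZ larvae all 15 had counts. Single markers did not all follow the sum. The marker mia overlapped, at 3.68 to 5.67 CPM in NUAK550 and 4.45 to 7.20 in lacZ. In bam and achi, among others, the highest NUAK548 library (0.891 and 9.89 CPM) lay below the lowest lacZ library (1.14 and 13.03). The level of roX1 was 222, 26.8 and 22.9 CPM in NUAK548, 33.6, 30.5 and 28.4 in NUAK550 and 228, 196 and 217 in lacZ. In the carcass the testis markers summed to 11.8 to 14.6 CPM in every group, where Atg8b was near 0. The part of male tissue in the Atg8b values was not tested beyond these levels.

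**Figure D4:**
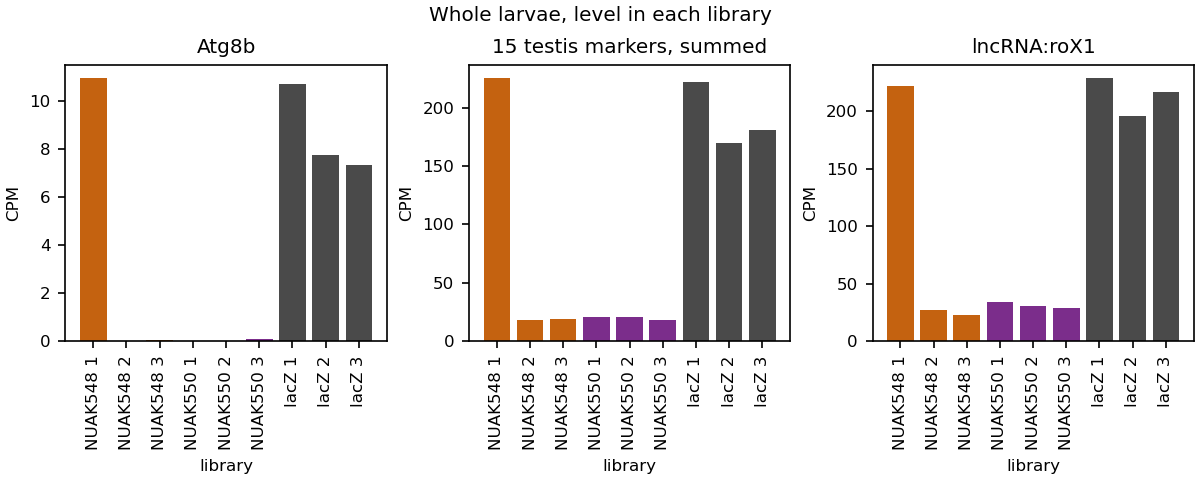
Level in CPM in each whole-larva library of Atg8b, of the 15 testis markers summed and of lncRNA:roX1. The first NUAK548 library stands with the lacZ libraries in all panels, at 10.96 CPM for Atg8b, and the remaining 5 NUAK libraries are at or near 0 for Atg8b.

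Leaving out that library also brought calls for 4 more members in NUAK550 whole larvae. Atg7 was at 31.7, 44.4 and 57.7 CPM in NUAK550 and 132, 103 and 162 in lacZ, and was then called lower (log2 −1.57, adjusted p = 0.012, against 0.084 with the library). Snap29 and Vamp7 were each called lower (log2 −0.48, adjusted p = 0.023 and 0.021, against 0.095 for both). Vps34 was at 45.5, 45.2 and 39.5 CPM in NUAK550 and 28.1, 35.4 and 28.9 in lacZ, and was called higher (log2 0.50, adjusted p = 0.022, against 0.096). All genes called in that fit made up 19.1% lower and 5.91% higher. The NUAK550 and lacZ libraries were the same in both fits, which differ in the spread shared over whole-larva libraries and in the genes that passed the filter, 12370 without the library and 12255 with it. In NUAK548 whole larvae Atg8b was the only member called without the library.

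Whether the NUAK effect differed between preparations was tested as an interaction over all 18 libraries and 12429 genes. Atg16 was the only member that edgeR called, where 2.04% of all genes were. Its change in muscle exceeded that in whole larvae 2.55-fold (log2 1.35, adjusted p = 0.011, SE 0.25), and the call held without each of the 18 libraries in turn. Atg9 gave log2 0.90 (adjusted p = 0.073, SE 0.24), Snap29 −0.52 (adjusted p = 0.13, SE 0.17) and Rab2 −0.34 (adjusted p = 0.23, SE 0.14), so edgeR did not call these 3. DESeq2 called all 3 as well as Atg16, with 824 genes called in all against 254 by edgeR. The median of all genes for this contrast was log2 0.11. Summed muscle markers were higher in NUAK550 whole larvae than in the other whole-larva groups, and their part in this contrast was not tested. Without the first whole-larva NUAK548 library 5 members were called, Atg8b, Atg16, Snap29, Rab2 and Vps16A, as were 14.8% of all genes.

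In control larvae the pathway was compared between the muscle carcass and the whole animal. Of 35 members 16 were higher in lacZ muscle than in lacZ whole larvae and 4 lower, where 22.4% of all genes were called higher and 37.1% lower. Values below 0 were found in 6 members and in 58% of all genes, and the median was log2 0.31 over the members, against −0.21 over all genes. Rab2 was at 275, 267 and 279 CPM in muscle and 150, 145 and 143 in whole larvae, scaled over all 18 libraries (log2 0.91, adjusted p = 2.8e-05, SE 0.12). Snap29 was at 87.6, 73.7 and 79.5 CPM in muscle and 50.1, 40.8 and 48.5 in whole larvae (log2 0.79, adjusted p = 0.00033, SE 0.14). In both genes the lacZ muscle libraries lay above all lacZ whole-larva libraries. These muscle libraries are the same 3 that the NUAK groups were compared with.

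Of the 9 fusion genes 6 were higher in muscle and 0 lower, and 2 of 3 lysosomal genes were higher, spin (log2 0.78, adjusted p = 0.00078, SE 0.15) and Mitf (log2 0.73, adjusted p = 0.00027, SE 0.12). In the lipid kinase complex Vps15, Atg6 and Atg14 were higher, and in conjugation Atg8a, Atg3 and Atg4a. Atg8a was at 1023, 964 and 1166 CPM in muscle and 731, 616 and 571 in whole larvae (log2 0.72, adjusted p = 0.0013, SE 0.15). The 4 lower members were Atg101, Atg4b, Atg18b and Atg8b. Atg18b, the second fly gene of the Atg18 family, was at 55.1, 42.4 and 44.6 CPM in muscle and 94.1, 84.0 and 105 in whole larvae (1.99-fold lower, SE 0.25 on the log2 scale, adjusted p = 0.0041), while its relative Atg18a was higher in muscle (log2 0.60, adjusted p = 0.0029, SE 0.14). Atg101 was at 14.4, 16.1 and 14.3 CPM in muscle and 26.8, 25.2 and 24.8 in whole larvae (log2 −0.78, adjusted p = 9.8e-05, SE 0.12). Atg8b had 1 count over the 3 lacZ muscle libraries and 484 over the 3 lacZ whole-larva libraries, 300-fold higher in whole larvae with a 95% counting interval of 53.6 to 11875. Calls for Atg3 and Vamp7 were lost without the first lacZ muscle library (adjusted p = 0.053 and 0.066) and that for lt without the second or the third (up to 0.088).

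**Figure D5:**
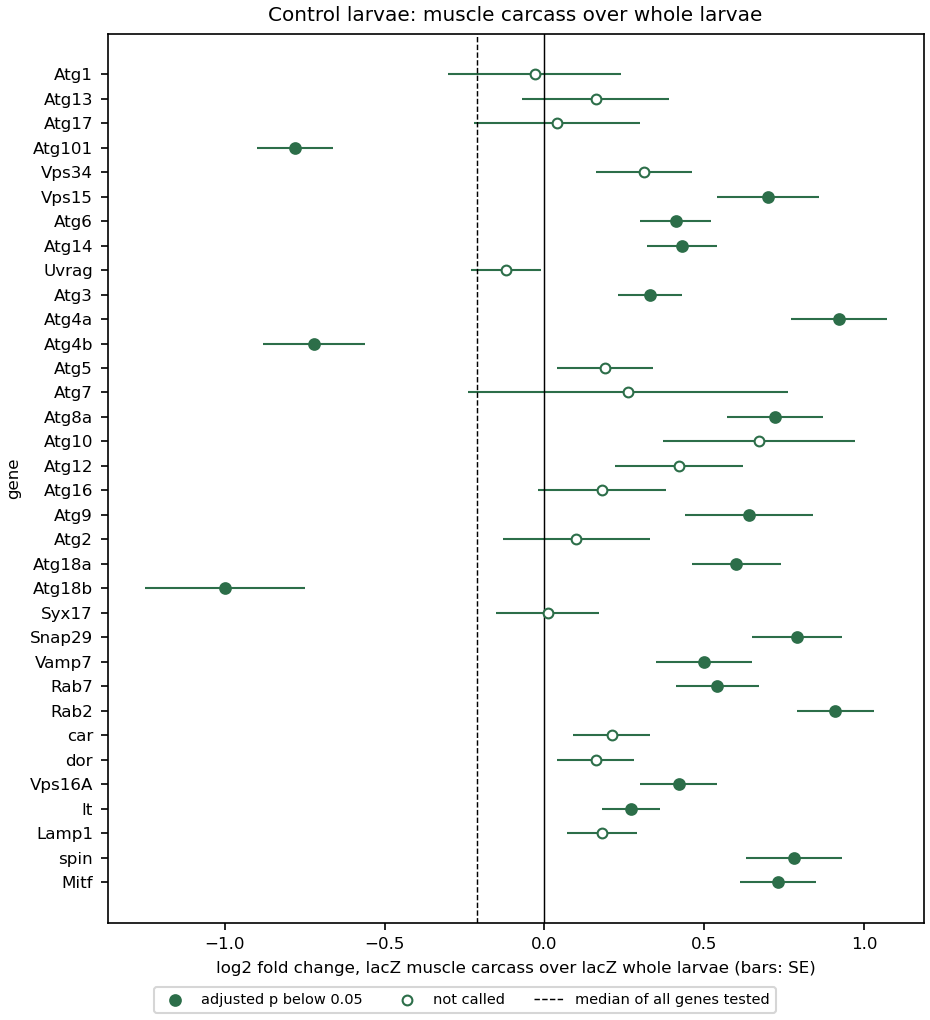
Log2 fold change of each member in control larvae, lacZ muscle carcass over lacZ whole larvae, with standard errors as bars, filled points for adjusted p below 0.05 and a dashed line at the median of all genes, −0.21. Atg8b is left out because it had 1 count in lacZ muscle, and 29 of the 35 members have values above 0.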

How the data were processed

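Libraries were made from total RNA with the NEBNext Ultra II kit, per the labels' protocols. The authors deposited raw counts per gene for 18 libraries, 1 table a library. Per the submitters' processing notes, Trimmomatic 0.36, STAR 2.5.2b, featureCounts of Subread 1.5.2, DESeq2 and build BDGP6 were used. For strand setting and annotation release the sources used here give nothing. Normalized signal tables were deposited as well, counts divided by 1 factor per library, for part of the genes, separately for muscle and whole larvae. These served only as an alternative (limma trend on log2(value + 1)).

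Identifiers were matched to gene names through an Ensembl BDGP6 annotation, 17137 by identifier and 223 by position, and 51 genes stayed unnamed. Start and end were identical for 98.3% of identifiers found in both. Counts were filtered with filterByExpr, scaled by TMM and tested with edgeR 4.0.16 (R 4.3.3), 1 model of 9 libraries and 3 groups per preparation, and 1 of 18 libraries for the interaction and for lacZ muscle over whole larvae. A call is a Benjamini-Hochberg adjusted p below 0.05 over all genes tested. CPM were computed from the TMM-scaled library size, and SE is the log2 fold change divided by the square root of F. Checks on simulated data preceded the fits. Alternatives were DESeq2 size factors, no count filter, DESeq2 1.42.0, limma 3.58.1, a replicate block and leaving out each library. The labels do not say that equal replicate numbers share a batch. Numbers are those of the labels, and the count headers of the whole-larva NUAK550 libraries carry different ones. Of all comparisons, every same-numbered pair of libraries correlated above 0.1 in its deviations from the group means only for NUAK548 and lacZ whole larvae (r = 0.144, 0.41 and 0.372). There edgeR called 0 members with or without the replicate block, so no call could be lost. In muscle the block removed the call of Atg101 in NUAK548. It also removed those of Atg17, Atg6, Atg3, Atg5 and Atg8a in NUAK550, and those of Atg5, Atg8a and lt for the mean.

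The members and lists were chosen with earlier results of these data known. Members with a call in any NUAK comparison were given full statistics, and of each further list the gene with the smallest adjusted p per direction for the mean of the NUAK groups was given with values where it was called, and other called genes were named after their values were seen. List symbols Vmp1, Pras40 and Lobe found no match, and no gene was analysed under those symbols. Depth limited the precision of low genes such as Atg8b and Atg10, and intervals cover counting error only.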

Additional observations from a re-analysis of the deposited data

Results flagged for a closer look

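Atg16 was singled out because the effect of NUAK on it differed between preparations in a direct test of that difference. The interaction was log2 1.35 (SE 0.25, edgeR adjusted p = 0.011). In muscle all 6 NUAK libraries lay above the 3 lacZ libraries, and in whole larvae the groups overlapped. Groups of 3 libraries were too small to test a single library for standing apart.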

How the results depend on the processing

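In muscle, calls in NUAK548 against lacZ numbered 4 in all, 6 by DESeq2, 3 with the replicate block and 3 to 4 with libraries left out. In NUAK550 there were 8 calls, 5 with no filter, 14 by DESeq2, 3 with the replicate block and 2 to 8 with libraries left out. For the mean there were 7, then 4 with no filter, 4 with the replicate block and 3 to 6 with libraries left out. Between NUAK550 and NUAK548 there were 0, 8 by DESeq2 and 1 by limma. In whole larvae NUAK550 had 0, 4 by DESeq2, 4 by limma and 0 to 5 with libraries left out, the mean 0, 3 by DESeq2 and 0 to 1, NUAK548 0 and 0 to 1, and NUAK550 against NUAK548 0 and 1 by DESeq2. The interaction had 1, 4 by DESeq2 and 1 to 5 with libraries left out. In lacZ muscle over whole larvae there were 20, as with the replicate block, and 18 to 23 with libraries left out. Correlations of same-numbered libraries' deviations ran from −0.441 to 0.4 within muscle, from −0.036 to 0.41 within whole larvae and from −0.213 to 0.202 between muscle and whole larvae of a genotype. Outside NUAK548 and lacZ whole larvae, where all 3 pairs were above 0.1, at least 1 pair of each comparison lay below 0.1. Differently numbered libraries were not compared in this way, so whether equal numbers share a batch stays unknown. The cause of the differences in calls was not tested. Directions reversed for values that were not called, Snap29 between NUAK550 and NUAK548 muscle (log2 −0.15 to 0.09 with libraries left out) and Atg9 for the mean in whole larvae (−0.26 to 0.01). DESeq2 scaling of the counts left the number of members called in each comparison unchanged. Over all genes, calls in NUAK550 muscle numbered 1233, 901 with no filter, 1880 by DESeq2, 572 with the replicate block and 403 to 1297 with libraries left out. Those in NUAK548 muscle numbered 546, 1132 by DESeq2, 222 with the replicate block and 174 to 529 with libraries left out. For the mean in muscle they numbered 1041, 800 with no filter, 520 with the replicate block and 410 to 978 with libraries left out. Between the NUAK groups in muscle they numbered 142, 897 by DESeq2 and 135 by limma. NUAK550 whole larvae had 99 genes called, 2419 by DESeq2, 2122 by limma and 12 to 3098 with libraries left out. The mean there had 52, 1250 by DESeq2 and 3 to 2721. NUAK548 had 19 and 4 to 2271, and NUAK550 against NUAK548 had 17 and 1012 by DESeq2. The interaction had 254, 824 by DESeq2 and 118 to 1858. For lacZ muscle over whole larvae there were 7401, 7104 with the replicate block and 6046 to 7823. No limma value was possible for the results over both preparations, whose normalized tables were made separately. Genes with few counts, Atg8b in muscle above all, set the limit of what could be tested.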
